A study of Mus musculus with 12 samples.

Results

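RNA of Hmgn1-/-Hmgn2-/- mouse embryonic stem cells (mESCs) was compared with RNA of WT mESCs by bulk RNA-Seq, with 3 libraries in each group. The comparison was defined by genotype alone, so that it takes in the 3 double knockout libraries and the 3 WT libraries, 6 of the 12 libraries of the study, and all 23412 genes of the count table. Both groups are v6.5 mESCs, a male line, grown on gelatin under standard embryonic stem cell conditions and harvested for RNA at 48 h. The double knockout is 1 clonal line, made by editing Hmgn1 with CRISPR-Cas9 in the Hmgn2-/- line. On both alleles it lacks 1 bp in exon 3 of Hmgn1 and has 1 bp added in exon 4 of Hmgn2, and the WT cells carry neither edit. Replicates are separate samples of 1 line, so p-values measure the spread between samples of these lines and not between independently edited clones. The WT libraries held 31448468, 17614490 and 28524108 counts, and the Hmgn1-/-Hmgn2-/- libraries held 31005479, 22151507 and 26410485.

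HMGN proteins are small proteins that bind nucleosomes, the units of DNA wrapped around histones, without recognizing a particular DNA sequence. They compete with linker histone H1 for nucleosomes and are found at promoters and enhancers with active histone marks. Embryonic stem cells come from the epiblast precursors of the blastocyst, whose neighbours are the trophectoderm and the primitive endoderm. In culture they keep an epiblast-like identity, and a minority of cells can turn on genes of neighbouring lineages.

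The edited genes themselves come first. Levels are given as CPM, counts relative to the total of the library, scaled by the trimmed mean of M values (TMM-scaled CPM), with no correction for gene length. Hmgn1 had 668, 601 and 616 CPM in the 3 WT libraries and 21.7, 20.1 and 21.5 in the 3 Hmgn1-/-Hmgn2-/- libraries. The groups were far apart, and the mean fell from 628 ± 35.1 to 21.1 ± 0.838 (SD, n = 3 each), 3.36% of the WT level. Hmgn2 had 138, 123 and 120 CPM in the WT libraries and 54.2, 51.1 and 54.5 in the Hmgn1-/-Hmgn2-/- libraries. Its groups did not overlap either, but its transcripts remained at 42.0% of the WT level. The log2 fold change (FC) was -4.89 for Hmgn1 (standard error 0.0687, adjusted p = 8.56e-15) and -1.25 for Hmgn2 (standard error 0.0683, adjusted p = 1.95e-08 by edgeR's quasi-likelihood test, Benjamini-Hochberg adjustment). A level of RNA does not measure protein, and no protein was measured in these libraries.

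The edited exons are shown with the guides because each guide matched the last bases of its exon. The breaks given below are expected from the guides, and the edited bases themselves were not read here. Exon 3 of Hmgn1 lies at chr16:96127311-96127340 of GRCm38, minus strand, and exon 4 of Hmgn2 (numbered in transcript Hmgn2-203 of the GENCODE annotation) lies at chr4:133966429-133966479, minus strand. Both are coding exons, of 30 and 51 bases. Each guide is written 5′ to 3′ with its protospacer adjacent motif (PAM) in capitals, and each exon is written along the gene with the bases opposite the guide in capitals.
Hmgn1 guide: acttacggccgacagcctcgCGG
Hmgn1 exon 3: cccaagcgccgctccgCGAGGCTGTCGGCC
Hmgn2 guide: aggctggcttaccttcgcagGGG
Hmgn2 exon 4: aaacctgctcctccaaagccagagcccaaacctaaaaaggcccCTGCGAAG
Of the 20 bases of each guide, 14 matched the end of the Hmgn1 exon and 8 the end of the Hmgn2 exon. The other 6 and 12 bases lie past the exon and were not compared with the genome. The expected Cas9 break is 11 bases before the exon end in Hmgn1 and 5 bases before it in Hmgn2.

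The wider HMG family was also read. Hmga2, a member normally active in embryonic cells, fell from 27 ± 5.92 to 7.98 ± 0.690 CPM (log2 FC -1.76). Differentially expressed genes (DEGs) are those with an adjusted p under 0.01 and a log2 FC of at least 1 in size. By these limits 3 of the 9 tested members fell, Hmgn1 and Hmgn2 included, beside 5.00% of all genes tested. The other HMGN genes were low. Hmgn5 had 20.7 ± 3.79 CPM in WT and 15.1 ± 1.13 in the double knockout (log2 FC -0.47), and Hmgn3 had 1.96 ± 0.491 and 1.53 ± 0.264 (-0.38), and neither was a DEG. The most abundant member, Hmgb2, had a log2 FC of 0.37, and Hmgb1 had 0.01. Hmgb2 lies on chromosome 8, whose median log2 FC, given below, was 0.26. Of the 5 nearest tested genes on each side of Hmgn1 and of Hmgn2, 0 of 10 were DEGs at either gene. Of all genes tested 6.30% were DEGs. Their log2 FC ran from -0.92 to 0.62 around Hmgn1 and from -0.66 to 0.27 around Hmgn2. Below the fold limit, Ets2, 401 kb from Hmgn1, had a log2 FC of -0.79 (adjusted p = 5.2e-06) and Ubxn11, 135 kb from Hmgn2, had -0.66 (adjusted p = 0.00782 by edgeR's quasi-likelihood test, Benjamini-Hochberg adjustment). Dhdds, 1.04 kb from Hmgn2, had a log2 FC of -0.07.

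**Figure D1:**
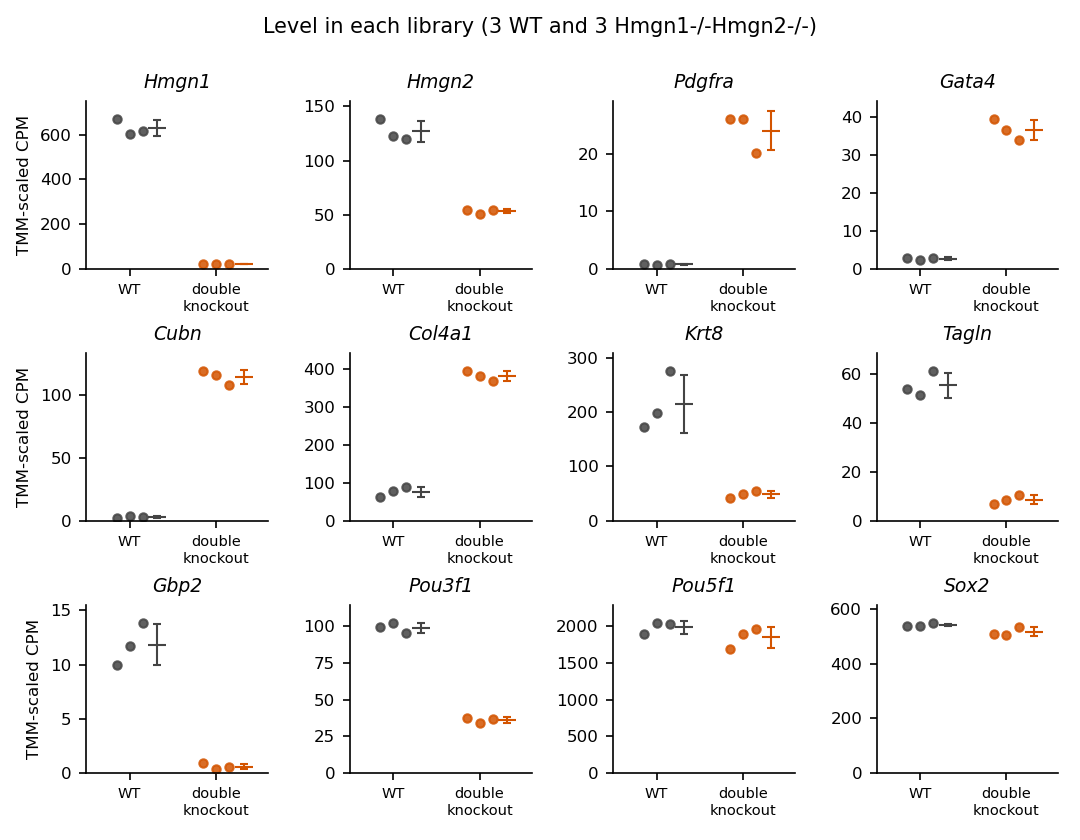
Level of 12 genes in each of the 3 WT and 3 Hmgn1-/-Hmgn2-/- libraries, as TMM-scaled CPM on linear axes that start at 0; points are libraries and the bars beside them are the mean ± SD. Hmgn1 fell to 3.36% and Hmgn2 to 42.0% of the WT level, endoderm genes such as Cubn were high in every double knockout library, and Pou5f1 overlapped between the groups.

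Whole chromosomes were read before single genes, because the libraries stood apart there. Over the 654 chromosome 8 genes whose mean reached 50 counts, the median log2 FC was 0.26, a fold of 1.20, and 87.2% of the genes were above 0. Over 10628 genes on the other autosomes the median was 0.01, and 51.3% were above 0. The shift ran along the whole chromosome: in the 12 segments of 10 Mb that held at least 20 such genes, the median was between 0.17 and 0.36. Relative to the mean of the WT libraries, the chromosome 8 median was 0.25, 0.26 and 0.26 in the double knockout libraries and -0.03, 0.02 and 0.00 in the WT libraries. It was 0.25 to 0.27 in the libraries of both single knockouts, so that it separates the WT libraries from all edited lines. The chromosome X median was -0.09, -0.13 and -0.11 in the double knockout libraries. It was -0.12 to -0.10 in the Hmgn1-/- libraries and -0.19 to -0.12 in the Hmgn2-/- libraries, so that this shift too was in all edited lines. The cause of either shift was not tested, and with no WT library that carries them, these shifts and the loss of HMGN proteins cannot be told apart.

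Genes of the Y chromosome also went with genotype. All 4 tested Y-linked genes fell, beside 5.00% of all genes tested, among them Eif2s3y, Ddx3y and Uty, which male cells normally use. Eif2s3y had 2.52, 1.87 and 2.06 CPM in the WT libraries and 0.483, 0.457 and 0.115 in the double knockout libraries (log2 FC -2.61). Ddx3y fell from 2.21 ± 0.527 to 0.211 ± 0.183 CPM (log2 FC -3.28). Both were low in every library, the WT libraries included: the X-linked partners Eif2s3x and Ddx3x, chosen after their values were seen, had 234 ± 3.87 and 903 ± 39.1 CPM in WT. Xist, the RNA that silences an X chromosome in female cells, had 2.70 ± 0.787 CPM in WT and 2.84 ± 0.475 in the double knockout, with overlapping libraries and a log2 FC of 0.04 that was -0.13 without WT replicate 2, -0.04 without Hmgn1-/-Hmgn2-/- replicate 1 and -0.02 without Hmgn1-/-Hmgn2-/- replicate 2. The share of cells that hold a Y chromosome was not tested.

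**Figure D2:**
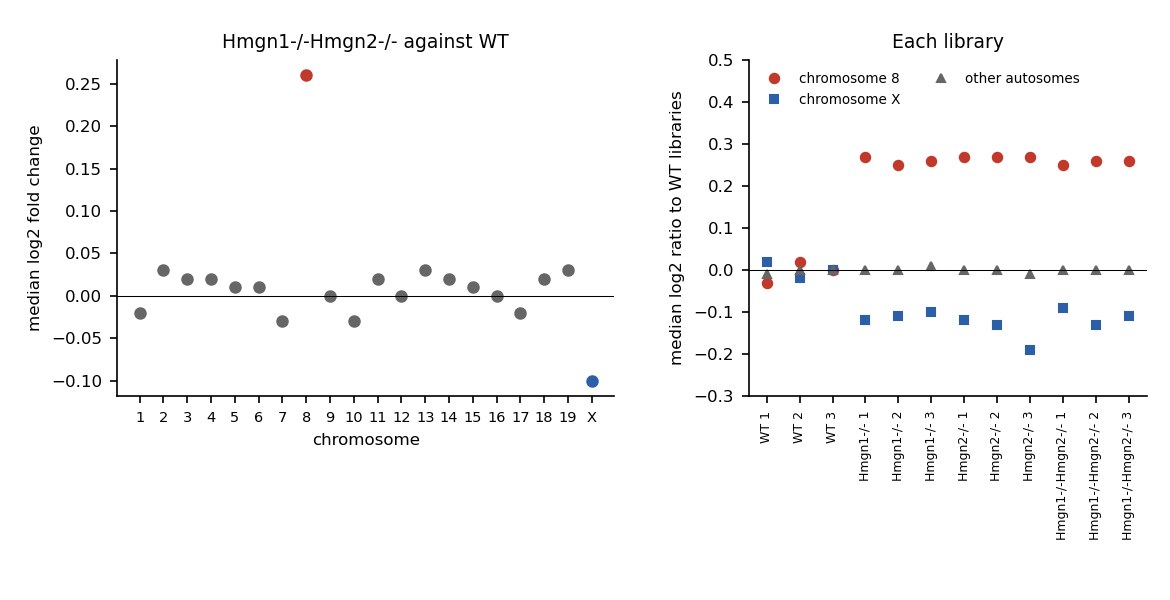
Left, median log2 FC of Hmgn1-/-Hmgn2-/- against WT for genes whose mean reached 50 counts, by chromosome; right, the median log2 ratio of each of the 12 libraries to the mean of the WT libraries for chromosome 8, chromosome X and the other autosomes. Chromosome 8 stands at 0.26 and chromosome X at -0.10, and the other autosomes stay near 0.

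The cells had the markers of embryonic stem cells in both groups. Of 20 pluripotency genes, all were tested and 0 were DEGs with edgeR or with DESeq2, where 6.30% of all genes tested were DEGs with edgeR. Their summed level was 7551, 7933 and 7912 CPM in WT and 7060, 7937 and 7805 in the double knockout, with overlap. By p alone, 11 had an unadjusted p under 0.05 with edgeR and 7 an adjusted p under 0.01, beside 38.9% and 18.0% of all genes tested, and these 7 missed the fold limit only. Pou5f1, a transcription factor required for pluripotency, had 1890, 2040 and 2026 CPM in the WT libraries and 1688, 1902 and 1958 in the double knockout libraries. These ranges overlapped. Sox2, its partner on DNA, had 541 ± 5.23 and 516 ± 16.8 CPM. Smaller shifts passed the p limit without the fold limit: Nanog had a log2 FC of -0.45 (adjusted p = 0.000195), Esrrb of 0.28 (0.00251) and Klf4 of 0.74 (adjusted p = 5.7e-06 by edgeR's quasi-likelihood test, Benjamini-Hochberg adjustment). The median of the list was -0.08, beside 0.00 over all genes tested.

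Of 14128 genes tested, 890 were DEGs by these limits. This is 6.30% of the genes tested. Of the DEGs, 184 rose (1.30% of the genes tested) and 706 fell (5.00%), so that 79.3% were downregulated (95% Wilson interval 76.5% to 81.9%, which treats genes as independent). The values of the 2 groups did not overlap in 888 of the DEGs and in 6000, or 42.5%, of the genes tested. The median size of the log2 FC was 1.61 over the DEGs. Called genes were mostly low in abundance: 14.5% of tested genes with a mean under 50 counts were DEGs, 9.90% of those from 50 to 500, 1.62% of those from 500 to 5000 and 0.632% of those above. Among the 7 DEGs with a mean of 5000 counts or more the balance was different, as 5 rose and 2 fell. Of the rises, 23 of 184 (12.5%) lay on chromosome 8, which held 5.34% of the genes tested, and 10 of the 23 still reached the fold limit with the chromosome's median taken off. Without chromosomes 8, X and Y, an alternative chosen after seeing the data, there were 803 DEGs, 154 up and 649 down (80.8% down).

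**Figure D3:**
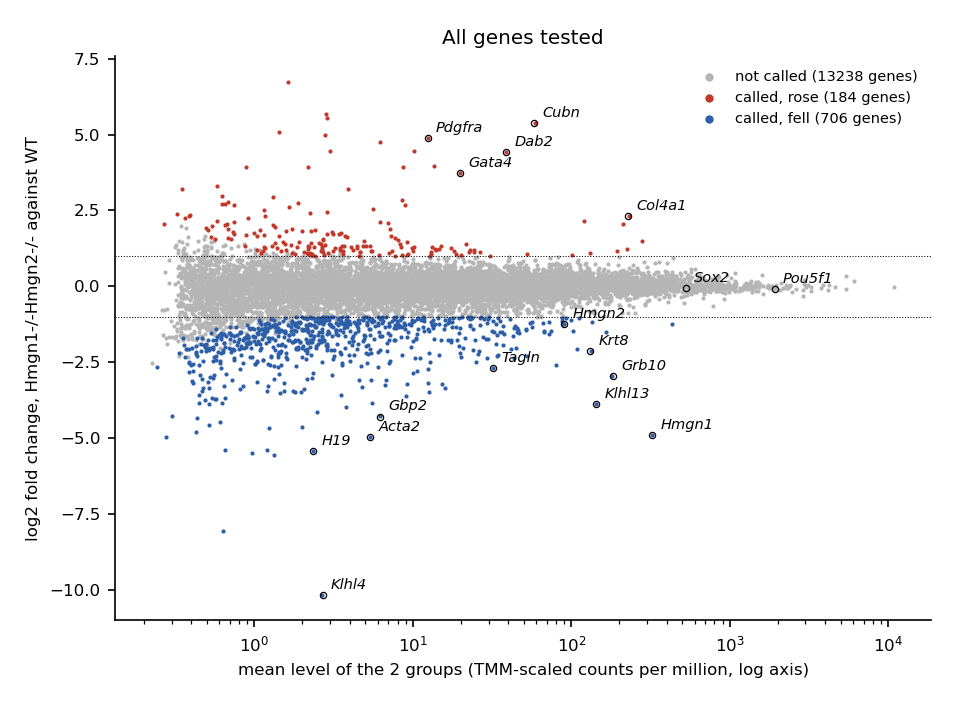
Log2 FC of Hmgn1-/-Hmgn2-/- against WT for the 14128 genes tested, against the mean level of the 2 groups in TMM-scaled CPM on a log axis; red and blue points are the 184 DEGs that rose and the 706 that fell, and dotted lines mark a log2 FC of 1 and -1. Rises of endoderm genes such as Cubn and Pdgfra stand apart from most other genes, and Hmgn1 is among the largest falls at high abundance.

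Genes of the primitive endoderm rose together. This lineage forms beside the epiblast in the blastocyst and gives rise to the yolk sac. Its transcription factors specify it, and its cells later take up maternal proteins and lay down a thick basement membrane. All 8 factors and markers of the list rose, with a median log2 FC of 3.84, against 1.30% of all genes tested. Their summed level was 8.86, 9.75 and 10.7 CPM in the WT libraries and 122, 125 and 109 in the Hmgn1-/-Hmgn2-/- libraries. All 8 kept their place among the DEGs whichever library was left out, and 6 of them also with glmTreat, which tests against a log2 FC of 1 instead of 0.

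Gata6, the factor that starts the primitive endoderm program, had 1.32, 1.98 and 1.71 CPM in WT and 25.4, 27.9 and 22.7 in the double knockout (log2 FC 3.95, standard error 0.150, adjusted p = 5.85e-10 by edgeR's quasi-likelihood test, Benjamini-Hochberg adjustment). Gata4, which acts with it, had 2.93, 2.21 and 2.96 CPM in WT and 39.3, 36.6 and 34.0 in the double knockout (3.73). Every double knockout library was above every WT library for both factors. Sox17, needed to maintain the lineage, rose from 0.435 ± 0.0796 to 11.9 ± 2.07 CPM (4.75). The receptor Pdgfra, a surface marker of the lineage, rose from 0.799 ± 0.0678 to 24.0 ± 3.45 CPM (4.89). Sox7, Foxa2 and Hnf4a rose less, by 1.88, 2.03 and 1.76 on the log2 scale.

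Per kilobase of exon, Gata4 was at 0.692 TMM-scaled CPM in WT and 9.39 in the double knockout, while Pou5f1, the most abundant pluripotency gene of the list, was at 883 and 823. In bulk samples, more cells of a type and more RNA per cell cannot be told apart, nor can fewer cells and less RNA per cell. The single knockouts, which share the WT libraries of this comparison, lay between: with all 12 libraries scaled together, Gata4 had 16.0 ± 1.19 CPM in the Hmgn1-/- line and 19.3 ± 4.07 in the Hmgn2-/- line (mean ± SD of 3 libraries). Gata6 had 8.81 ± 1.51 and 11.3 ± 2.92 there, and Sox17 4.53 ± 0.260 and 5.48 ± 1.11. The differences between knockouts were not tested here.

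The uptake machinery of visceral endoderm was the next group. Cubilin (Cubn) is a large receptor that binds proteins at the cell surface, amnionless (Amn) anchors it in the membrane, and Dab2 is the adaptor that brings such receptors into clathrin-coated pits. All 3 rose, and they were the only DEGs among 10 tested genes of endoderm uptake and secretion (median log2 FC 0.39; 1.30% of all genes tested rose). Cubn had 2.30, 3.57 and 2.65 CPM in WT and 119, 116 and 108 in the double knockout (log2 FC 5.38, standard error 0.114, adjusted p = 7.63e-13 by edgeR's quasi-likelihood test, Benjamini-Hochberg adjustment). Dab2 had 3.19, 3.17 and 3.83 CPM in WT and 73.9, 72.2 and 75 in the double knockout (4.43). Amn rose from 2.41 ± 0.347 to 15.5 ± 1.47 CPM (2.66). The other uptake receptor of the list, Lrp2, was picked after its values were seen and was not a DEG, with 98.5 ± 12.2 and 154 ± 12.4 CPM (0.64). Apoe, the most abundant member, had 553 ± 15.7 and 431 ± 9.67 CPM (-0.36), and 6 of the 16 listed genes were too low to test, with Ttr at 0 in all 6 libraries.

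Basement membrane genes, whose proteins form the sheet under epithelia, rose in part. Of 13 tested, 4 rose and 0 fell, with a median log2 FC of 0.46, where 1.30% of all genes tested rose and 5.00% fell. By p alone, 12 of the 13 had an adjusted p under 0.01 with edgeR, beside 18.0% of all genes tested. The log2 FC of the list ran from -0.63 to 2.32. Col4a1 had 62.5, 78.8 and 88.4 CPM in WT and 394, 383 and 369 in the double knockout (2.32), and Col4a2, the other chain of the same collagen IV trimer, rose by 2.14. Lama1, the laminin chain of early embryonic basement membranes, rose from 81.6 ± 11.2 to 339 ± 26.5 CPM (2.06). Col4a1 and Col4a2 are neighbours on chromosome 8, whose median was 0.26, and Lama1 is on chromosome 17. Plat, a protease also on chromosome 8, rose by 1.29. Lamc1, the most abundant member, had 481 ± 39.3 and 659 ± 46.7 CPM, below the fold limit at 0.46.

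Other rises came from genes outside the lists, taken by size. Nostrin, a trafficking adaptor, rose from 0.124 ± 0.0551 to 5.61 ± 0.655 CPM, and Srgn, a proteoglycan of secretory granules, from 0.896 ± 0.191 to 19.3 ± 1.27. The transcription factor Foxq1 had 1.29, 0.737 and 1.08 CPM in WT and 15.6, 17.7 and 15.8 in the double knockout. Klb, a co-receptor for endocrine FGFs, rose by 3.91 on the log2 scale, the scaffold gene Pdzd3 by 3.21, and Pth1r, the receptor for parathyroid hormone and its related peptide, by 2.83.

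Among the falls, epithelial keratins stood out as a group. Simple epithelial keratins are filament proteins of trophectoderm and other early epithelia, and keratins 8 and 18 pair with each other. All 6 tested keratins fell, with a median log2 FC of -2.16, against 5.00% of all genes tested. Krt8 had 172, 199 and 275 CPM in the WT libraries and 42.3, 49.0 and 55.3 in the double knockout (-2.14). Krt18 had 108, 124 and 180 CPM and 18.8, 23 and 26.6 (-2.60). The WT libraries spread widely, with replicate 3 the highest, but every double knockout library lay below them. Krt7 fell by 3.62, Krt19 by 2.18 and Krt42 by 1.26 on the log2 scale. Krt20, at 1.06 ± 0.299 CPM in WT, was the weakest: it was no longer a DEG without WT replicate 2, WT replicate 3 or any one of the 3 double knockout libraries, with a log2 FC of -1.73 to -1.27 and an adjusted p of 0.018 to 0.055 (edgeR's quasi-likelihood test, Benjamini-Hochberg adjustment).

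Genes of the contractile cytoskeleton fell as well. Smooth muscle actin and its partners build stress fibres in many spread cells, not only in muscle. Of 12 tested, 7 fell and 0 rose (median log2 FC -1.32; 5.00% of all genes tested fell), and their summed level went from 642, 669 and 746 CPM to 331, 346 and 355. Acta2, smooth muscle actin, had 11.5, 8.22 and 11.5 CPM in WT and 0.0966, 0.639 and 0.344 in the double knockout (-4.96). Tagln, an actin-bundling protein, had 53.6, 51.3 and 60.9 CPM and 6.82, 8.59 and 10.5 (-2.69). Tpm1, the most abundant member, fell from 186 ± 13 to 82.7 ± 2.58 CPM (-1.17). Cald1, Myl9, Cnn1 and Lmod1 fell by 2.05, 1.85, 1.47 and 2.06 on the log2 scale. Skeletal actin, Acta1, was among the 15 largest falls, from 10.4 ± 2.19 to 0.725 ± 0.221 CPM (-3.86). All 7 members kept their call whichever library was left out.

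The fibroblast list is given for the other cells a culture could hold. Of 14 tested genes 7 fell and 0 rose, against 5.00% falling among all genes tested, with a median of -0.94, and the summed level was 461, 467 and 434 CPM in WT and 538, 488 and 429 in the double knockout, most of it Fn1 (log2 FC 0.22). Of the 8 defining markers, 4 were tested and 3 fell, and their sum went from 10.9, 6.63 and 10.7 CPM to 2.67, 3.43 and 2.83. Lum and Fap were at 0 in all 6 libraries. Col1a1 and Col1a2, the chains of collagen I, fell from 4.29 ± 1.17 and 2.70 ± 1.26 CPM by 1.81 and 2.41 on the log2 scale, and Thy1 fell by 1.32 and Col5a1 by 1.40. The other 3, Twist2, Col5a2 and Col6a1, lay under 1 CPM in WT and were no longer DEGs in some fits: Twist2 and Col5a2 without WT replicate 2 or 3 or double knockout replicate 2 or 3 (log2 FC -2.64 to -2.23 and -2.06 to -1.69), and Col6a1 without WT replicate 3 or double knockout replicate 1 or 2 (-2.11 to -2.02). The list then had 4 DEGs without WT replicate 3 or double knockout replicate 2. The part of such cells in the other falls was not tested.

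YAP is a coactivator that works with TEAD factors and responds to cell density and stiffness of the substrate. Of 20 tested targets 8 fell and 1 rose, with a median log2 FC of -0.67, where 5.00% of all genes tested fell and 1.30% rose. Ctgf, a matricellular protein often used to read YAP, had 39.7, 79.8 and 78.0 CPM in WT and 22.3, 25.8 and 27.5 in the double knockout (-1.38). WT replicate 1 was below the other WT libraries, though above the double knockout libraries. Igfbp3, Axl, Myof and Nt5e fell by 1.50, 1.75, 1.24 and 1.32 on the log2 scale, and the ligand Tgfb2 fell by 3.05. Foxf2 rose from 0.106 ± 0.0716 to 1.06 ± 0.161 CPM. Amotl2, the most abundant member, had a log2 FC of -0.38 and overlapping libraries. Cyr61 (-1.08) was below the fold limit without WT replicate 3 (-0.93). Ankrd1 (-1.54) was no longer a DEG without any 1 of 5 libraries, all but WT replicate 1 (-1.75 to -1.19). It was also lost with DESeq2 and with all 12 libraries in 1 fit. Nor was it a DEG with the replicate number as a block (-1.50, adjusted p = 0.0102 by edgeR's quasi-likelihood test, Benjamini-Hochberg adjustment).

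**Figure D4:**
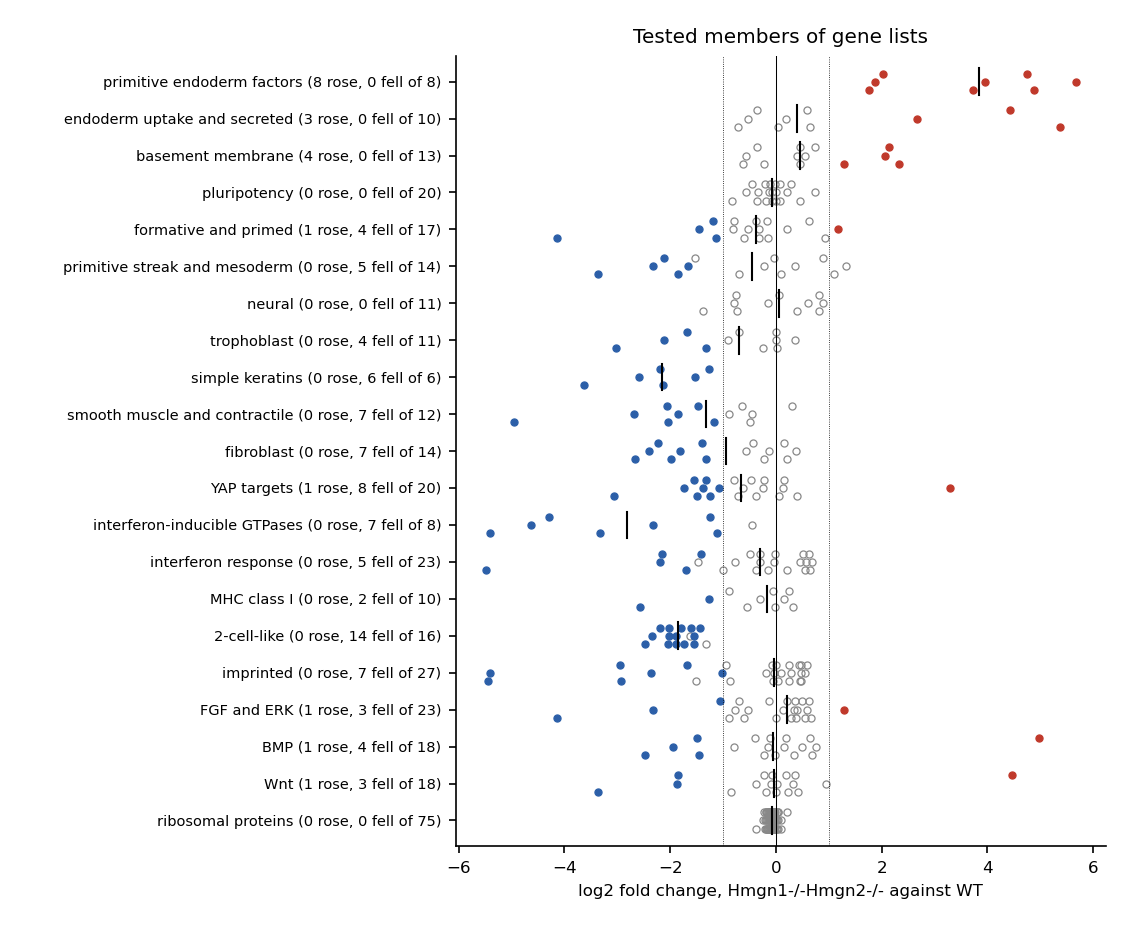
Log2 FC of each tested member of 21 gene lists in Hmgn1-/-Hmgn2-/- against WT; filled points are DEGs (red rose, blue fell), open points are not, black bars are medians, dotted lines mark 1 and -1, and small vertical offsets only keep points apart. All 8 primitive endoderm factors lie to the right of 0. All 6 keratins and all 8 tested interferon-inducible GTPases, of which 7 are DEGs, lie to the left. Ribosomal protein genes lie around 0.

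Trophoblast, primitive streak and formative genes were read as the lineages next to these cells, and their counts stand beside 5.00% of all genes tested that fell and 1.30% that rose. Of 11 tested trophoblast genes 4 fell and 0 rose (median -0.69; sum 93.7, 104 and 114 CPM in WT and 73.9, 79.3 and 82.0 in the double knockout). Gata3, a trophectoderm factor, had 2.02, 5.44 and 4.95 CPM in WT and 0.451, 0.502 and 0.535 in the double knockout (-3.03). Ascl2, a factor of trophoblast progenitors, fell from 12.8 ± 0.966 to 4.04 ± 0.111 CPM (-1.67), Hand1 by 2.11 and Tfap2a by 1.33 on the log2 scale. Tfap2c, the most abundant, had a log2 FC of -0.23. Of 14 tested genes of the primitive streak and mesoderm 5 fell and 0 rose (median -0.45). T, the streak factor brachyury, had 1.61, 4.14 and 5.47 CPM in WT and 0.418, 0.502 and 0.153 in the double knockout (-3.37). The ligand genes Wnt3 and Fgf8 fell by 1.85 and 2.33, and Eomes had a log2 FC of -0.69. Kdr (-1.66) was no longer a DEG without WT replicate 2 or 3 or any one of the double knockout libraries (-1.88 to -1.40).

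The formative list holds genes that come on as cells leave naive pluripotency. Of 17 tested, 4 fell and 1 rose (median -0.38; 5.00% and 1.30% of all genes tested). The summed level ran the other way, from 1896, 2111 and 1924 CPM in WT to 2366, 2328 and 2228 in the double knockout. Fgf5, the classic marker of this step, fell from 4.73 ± 0.909 to 0.260 ± 0.0538 CPM (-4.13). Pou3f1 had 99.8, 102 and 95.3 CPM in WT and 37.2, 33.9 and 37.0 in the double knockout (-1.46), with tight replicates. Grhl2, which opens epithelial enhancers, fell by 1.19, and Otx2 had a log2 FC of -0.81. Tcf15, which primes cells for differentiation, moved the other way, from 119 ± 1.14 to 268 ± 14.2 CPM (1.17). Zic2 (-1.14) missed the fold limit without WT replicate 1 (-0.99). Dnmt3b, the most abundant member, had a log2 FC of -0.14. Dnmt3a, also in this list and given below, was higher in the double knockout without overlap (0.92), under the fold limit.

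Interferon-inducible GTPases coat and attack vacuoles that hold intracellular pathogens, and many are switched on by interferon gamma. Of the 16 listed genes 8 were tested, 7 fell and 0 rose, with a median log2 FC of -2.82, where 5.00% of all genes tested fell. Their summed level went from 28.3, 34.6 and 38.4 CPM to 4.51, 4.98 and 5.23. Gbp2, the most abundant, had 10.0, 11.7 and 13.8 CPM in WT and 0.869, 0.365 and 0.497 in the double knockout (-4.29, standard error 0.238, adjusted p = 2.4e-08 by edgeR's quasi-likelihood test, Benjamini-Hochberg adjustment). Irgm1 had 5.87, 9.75 and 10.3 CPM and 0.676, 1.23 and 0.726 (-3.32). Gbp1 fell from 3.85 ± 0.961 to 0.152 ± 0.1 CPM and Gbp4 from 2.62 ± 0.508 to 0.524 ± 0.176. Gbp3 had 1.29 ± 0.163 CPM in WT and at most 1 count in each double knockout library. Igtp (-1.24) lost its place without double knockout replicate 1 (-1.07) or replicate 2 (-1.15), and Irgm2 (-1.11) did so whichever of the 6 libraries was left out (-1.21 to -1.04).

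The promoters of these GTPases are shown because their genes moved together. The search used GAAANNGAAA, the core of the interferon-stimulated response element, on both strands of RefSeq promoters from 250 bases before to 50 bases after the start site. All 6 GTPase DEGs with a promoter in the table held it, beside 2.62% of 11141 promoters of tested genes and 5.03% of 517 promoters of genes that fell. Promoters were found for 78.9% of the genes tested and 73.2% of those that fell, so that a comparison over whole sets is void and the shares are a description. Each window is read along the gene, 5′ to 3′ on GRCm38.p6, with the match in capitals; a match on the opposite strand reads TTTCNNTTTC.
Gbp1 (chr3:142594695-142594734, plus strand): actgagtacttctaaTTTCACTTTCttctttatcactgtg
Gbp2 (chr3:142620589-142620628, plus strand): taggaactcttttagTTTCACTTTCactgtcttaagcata
Gbp3 (chr3:142559984-142560023, plus strand): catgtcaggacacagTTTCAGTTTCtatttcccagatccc
Irgm1 (chr11:48871426-48871465, minus strand): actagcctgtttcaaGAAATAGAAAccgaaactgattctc
Irgm2 (chr11:58214898-58214937, plus strand): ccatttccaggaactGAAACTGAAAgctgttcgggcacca
Igtp (chr11:58199507-58199546, plus strand): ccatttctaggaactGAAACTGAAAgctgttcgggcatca
In all, 5 motifs were searched on both strands. TTCNNNGAA, the core of the gamma-activated site, was in 2 of these 6 promoters, beside 6.59% of all. In the interferon response list it was in 2 of 4 DEGs with a promoter and 6 of 18 tested members. The response element core itself was there in 1 of 4 DEGs and 6 of 18 tested members, so that 5 of the genes that hold it, such as Bst2 and Ifitm2, were not DEGs. The CArG box, CCNNNNNNGG with only adenine or thymine in its middle, was in 1 of 6 contractile DEGs with a promoter and 3 of 11 tested members, beside 1.30% of all. The TEAD core, GGAATG, was in 3 of 8 YAP target DEGs with a promoter and 7 of 14 tested members, beside 12% of all promoters. It was in more of the contractile list, in 4 of 6 DEGs and 6 of 11 tested members. For the primitive endoderm list, the GATA core AGATAA was in 1 of 3 DEGs with a promoter, and for the endoderm uptake and secreted list also in 1 of 3 and for the basement membrane list in 0 of 2, beside 6.02% of all. This core was in 3 of 8 DEGs of the 2-cell-like list as well. Gbp3 and Irgm1 each held a further match that overlaps the one shown. The windows of Irgm2 and Igtp are nearly the same sequence, and reads of such related genes could be split between them. A match is a description of these letters and not a measured site, and no factor binding was measured in these libraries.

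Other interferon genes moved less as a list. Of 23 tested genes of the interferon response 5 fell and 0 rose (median -0.30; 5.00% of all genes tested fell). Irf1, a factor that acts on the element above, had 38.3, 35.2 and 30.5 CPM in WT and 13.9, 12.9 and 12 in the double knockout (-1.42). Oas1a and Xaf1 fell by 2.20 and 2.16 on the log2 scale, and Zbp1, a sensor of Z-form nucleic acids, went from 1.89 ± 0.429 to 0.0412 ± 0.0463 CPM. Ifitm2, the most abundant, had a log2 FC of -0.30. Oasl2 (-1.70) was no longer a DEG without any 1 of 5 libraries, all but WT replicate 2 (-1.85 to -1.38). In MHC class I presentation 2 of 10 tested genes fell, beside the same 5.00%: Tapbp, which loads peptides, from 37.2 ± 1.12 to 15.4 ± 1.21 CPM (-1.27), and the immunoproteasome subunit Psmb8 from 1.74 ± 0.328 to 0.292 ± 0.0262 (-2.56). Psmb10, the most abundant member and on chromosome 8, had a log2 FC of 0.25.

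Imprinted genes are expressed from the copy of 1 parent. Of 27 tested, 7 fell and 0 rose, where 5.00% of all genes tested fell, and the median was -0.03. The summed level overlapped, with 1679, 1925 and 1979 CPM in WT and 2007, 1949 and 1785 in the double knockout. Grb10, which restrains insulin and growth factor signalling, had 338, 306 and 321 CPM in WT and 44.8, 39.4 and 40.8 in the double knockout (-2.95, standard error 0.0674, adjusted p = 1.31e-12 by edgeR's quasi-likelihood test, Benjamini-Hochberg adjustment). With all 12 libraries scaled together it had 403 ± 7.95 CPM in Hmgn1-/- mESCs and 34.6 ± 4.64 in Hmgn2-/- mESCs, the line from which the double knockout was made. Peg13 showed the same order, with 2.34 ± 0.212 CPM in WT and 0.0564 ± 0.0716 in the double knockout. Scaled over all 12 libraries, Peg13 had 4.06 ± 0.255 CPM in Hmgn1-/- and 0.0326 ± 0.0302 in Hmgn2-/- mESCs. For these genes the Hmgn2 edit and the history of the Hmgn2-/- clone cannot be told apart in these libraries. H19 and Igf2, which share enhancers on chromosome 7, both fell: H19 from 4.6 ± 0.648 to 0.105 ± 0.0803 CPM and Igf2 from 72.7 ± 14.6 to 14.1 ± 1.28 (-2.37). Dio3 fell by 2.94 and Plagl1 by 1.01 on the log2 scale, the latter below the fold limit without WT replicate 3 or double knockout replicate 3 (-0.91 each). Ascl2, given above, is the other. Peg10, the most abundant, had a log2 FC of 0.44 with overlapping libraries.

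The 2-cell-like list marks rare cells of mESC cultures that express genes of the embryo at genome activation. Of 16 tested genes 14 fell and 0 rose (median -1.84; 5.00% of all genes tested fell), and the summed level was 56.7, 46.8 and 39.1 CPM in WT and 15.9, 15.5 and 10.0 in the double knockout. Of these DEGs 12 belong to the Zscan4, Usp17l and Tcstv families, whose near-identical copies can share reads, and the value of any single copy is uncertain. Tmem92 and Sp110, listed as single genes, fell from 1.55 ± 0.544 and 1.61 ± 0.525 CPM to 0.364 ± 0.128 and 0.316 ± 0.123. In the 6 libraries of this comparison Zscan4c had 1.91 ± 0.353 CPM in the double knockout and 7.15 ± 1.22 in WT. In the single knockouts, which share the WT libraries, it had 0.458 ± 0.185 CPM in Hmgn1-/- and 0.442 ± 0.128 in Hmgn2-/- mESCs, with all 12 libraries scaled together. With glmTreat only 1 of the 14 remained. Zscan4b and Tcstv3 were no longer DEGs without WT replicate 2 or double knockout replicates 2 or 3, and Zscan4b also without double knockout replicate 1 (log2 FC -1.84 to -1.20 and -1.91 to -1.58).

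Signalling lists are given beside the shares of all genes tested, of which 5.00% fell and 1.30% rose. In BMP signalling 4 of 18 tested genes fell and 1 rose (median -0.06). Id2, Id3 and Id4, targets that block basic helix-loop-helix factors, fell by 2.48, 1.49 and 1.46 on the log2 scale, Id2 from 28.2, 45.3 and 54.4 CPM to 6.44, 7.35 and 9.05. Id1, the most abundant target, had 110, 194 and 234 CPM in WT and 163, 184 and 255 in the double knockout, with overlapping ranges (log2 FC 0.16, and -0.10 and -0.05 without WT replicate 1 or double knockout replicate 3). Nog, a secreted BMP antagonist, fell by 1.95, and Bmper, which binds BMPs outside the cell, rose from 0.183 ± 0.0872 to 5.38 ± 0.464 CPM. In the Wnt list 3 of 18 fell and 1 rose: Wnt3, Wnt8a and T fell, and the antagonist Dkk1 rose from 0.246 ± 0.0920 to 5.74 ± 0.789 CPM (4.46). Ccnd1 had a log2 FC of -0.23.

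In FGF and ERK signalling 3 of 23 tested genes fell and 1 rose (median 0.20), so that 4 of 23 were DEGs, beside 6.30% of all genes tested. By p alone, 20 of the 23 had an unadjusted p under 0.05 with edgeR and 15 an adjusted p under 0.01, beside 38.9% and 18.0% of all genes tested. The summed level was 1651, 1881 and 1845 CPM in WT and 2152, 2138 and 2101 in the double knockout. Fgf4, the main FGF ligand of these cells, had 322 ± 24.9 and 293 ± 22.6 CPM with overlapping libraries (-0.14). Fgf5 and Fgf8 fell as given above, and Fgf15 (-1.06) was below the fold limit without WT replicate 1 (-0.94) or double knockout replicate 3 (-0.97). The receptor Fgfr3 rose from 2.35 ± 0.675 to 5.82 ± 0.269 CPM (1.28). In the Nodal list 1 of 15 fell, close to the 5.00% of all genes tested: Lefty1, a feedback inhibitor, had 119, 61.4 and 44.1 CPM in WT and 33.8, 28.8 and 21.2 in the double knockout (-1.42). This rested on single libraries, as the list had 0 DEGs without WT replicate 1 (-0.91) or double knockout replicate 3 (-1.26), and 0 with DESeq2. The co-receptor Tdgf1 had a log2 FC of 0.16. In LIF and STAT3 signalling 0 of 15 were DEGs with edgeR or DESeq2, while 9 had an unadjusted p under 0.05 and 8 an adjusted p under 0.01 with edgeR and missed the fold limit only, beside 38.9% and 18.0% of all genes tested. The summed level rose without overlap, from 1478, 1525 and 1555 CPM to 1960, 1886 and 1930. Gbx2, a STAT3 target, came nearest, with 136 ± 21.0 and 265 ± 20.2 CPM (0.97), and the list had 1 DEG without WT replicate 3 or double knockout replicate 2.

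Markers of further cell types are given beside 1.30% of all genes tested that rose and 5.00% that fell. Of 13 tested endothelial and blood genes 3 rose and 3 fell (median -0.06; sum 111, 121 and 121 CPM in WT and 90.4, 92.2 and 93.4 in the double knockout). Pecam1, the most abundant, had a log2 FC of -0.77, and Emcn was at 0. Esam, a junction protein, rose from 3.54 ± 0.963 to 10.9 ± 1.30 CPM and the blood factor Runx1 from 2.80 ± 0.676 to 6.85 ± 0.253, while Tek fell from 9.31 ± 0.263 to 3.01 ± 0.205. Cdh5, on chromosome 8, rose to 1.13 ± 0.216 CPM, Flt1 fell by 1.79 on the log2 scale, and Kdr is given above. Of 11 tested neural genes 0 were DEGs with edgeR or DESeq2, while 7 had an unadjusted p under 0.05 and 3, Sox1 among them, an adjusted p under 0.01 with edgeR and missed the fold limit only, beside 38.9% and 18.0% of all genes tested at these p limits (median 0.06; sum 251, 243 and 222 CPM in WT and 249, 253 and 252 in the double knockout). Sox1, a neural plate factor on chromosome 8, had 17.3 ± 0.0459 and 30.2 ± 1.36 CPM (0.81). The part of such cells in the other results was not tested.

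Of the macrophage and microglia genes, the defining markers were low. Of 15 listed genes 8 were tested, 4 fell and 1 rose (median -0.56; 5.00% and 1.30% of all genes tested), and the sum was 69.1, 90.8 and 99.2 CPM in WT and 31.3, 35.9 and 37.9 in the double knockout. The summed level of the 6 defining markers, of which 1 was tested, was 0.757, 1.53 and 1.53 CPM in WT and 0.837, 0.822 and 0.688 in the double knockout, and of the whole list Emr1 and Tyrobp were at 0 in all 6 libraries. Csf1r, a defining marker too low to test and picked after its values were seen, had 9, 8 and 21 counts in the WT libraries and 0, 1 and 0 in the double knockout libraries. The falls included Clu, a secreted chaperone and the most abundant, from 43.9 ± 8.88 to 19.9 ± 1.92 CPM, the lysosomal protein gene Cd68 from 25.9 ± 5.52 to 7.55 ± 1.89, and the cytokine Csf1 from 9.73 ± 1.26 to 1.13 ± 0.255. Itgam (-1.57) and Mertk (1.02) depended on single libraries, Itgam on WT replicate 2 and double knockout replicates 1 and 3 (-1.49 to -1.24) and Mertk on WT replicates 2 and 3 and double knockout replicates 1 and 2 (0.91 to 1.03). The list had 3 DEGs without WT replicate 2, 7 without WT replicate 1 and 6 with DESeq2.

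Several small lists held 1 or 2 DEGs and are given beside the 6.30% of all genes tested that were DEGs. Igf2bp2, an RNA-binding protein of growing embryonic tissue, fell from 92.4 ± 10.1 to 40.2 ± 2.48 CPM (-1.20), and with Hmga2 it made 2 of 6 oncofetal genes, while Igf2bp1 had a log2 FC of 0.05. Tex19.1, a germline gene usually held back by DNA methylation, fell from 124 ± 29.0 to 52.4 ± 9.33 CPM (-1.25). The other of 2 DEGs among 15 germline genes, Tuba3a (-1.09), missed the fold limit without double knockout replicate 1 (-0.98), which left 1. Cldn4, a tight junction protein, was the only 1 of 16 adhesion genes (-1.05), and it missed the limit without WT replicate 3 or double knockout replicate 1 (-0.97 to -0.89, with 0 DEGs in the list), while the list had 3 DEGs without WT replicate 1, WT replicate 2 or double knockout replicate 3. Cdh1, or E-cadherin, on chromosome 8, had a log2 FC of 0.26. Cdkn2b, a brake on cyclin D kinases, was the only 1 of 21 cell cycle genes (-1.40; 5.00% of all genes tested fell), and was no longer a DEG without WT replicate 3 or double knockout replicate 2 (-1.20 to -1.09). Hoxa10 was the only 1 of 10 tested Hox genes (1.66), and was no longer a DEG without WT replicate 3 or double knockout replicates 1 or 3 (1.38 to 1.68), and 29 of 39 Hox genes were too low to test.

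Chromatin regulators showed 0 DEGs with edgeR and 0 with DESeq2, beside 6.30% of all genes tested with edgeR. These were 14 genes of PRC2 and H3K27 demethylases, 13 acetyltransferases and deacetylases, 11 genes of H2A.Z and its exchange, 11 of cohesin and CTCF, 7 linker histones and 10 of DNA methylation, and 6, 4, 6, 6, 2 and 7 of them had an unadjusted p under 0.05 with edgeR. In the same order 3, 2, 1, 1, 2 and 4 had an adjusted p under 0.01 and missed the fold limit only. Over all genes tested 38.9% had an unadjusted p under 0.05 and 18.0% an adjusted p under 0.01. The lowest p values went with Kdm6a (log2 FC -0.43), Hdac2 (-0.27), Actl6a (-0.23), Pds5a (0.29), H1fx (0.37) and Dnmt3a (0.92). Dnmt3a, a de novo DNA methyltransferase, was the nearest to the fold limit, with 314, 318 and 270 CPM in WT and 607, 559 and 544 in the double knockout. Its groups did not overlap (adjusted p = 4.08e-07 by edgeR's quasi-likelihood test, Benjamini-Hochberg adjustment). The histone H2afz, which encodes H2A.Z, had 1054 ± 24.1 and 1131 ± 90.6 CPM, and Rad21 of cohesin had 353 ± 9.29 and 371 ± 10.4, both with overlap. The summed level of the linker histones was 162, 135 and 133 CPM in WT and 177, 196 and 187 in the double knockout. That of cohesin and CTCF was 1770, 1795 and 1782 CPM and 2014, 1891 and 1900. These 2 sums did not overlap between the groups, and those of the other chromatin lists did. The libraries were of poly-A transcripts, so histone RNA without a poly-A tail is poorly covered.

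General stress and housekeeping genes also held 0 DEGs with either tool, beside 6.30% of all genes tested with edgeR: 15 p53 targets, 11 heat shock genes, 75 ribosomal protein genes and 10 housekeeping genes, of which 9, 5, 13 and 2 had an unadjusted p under 0.05 and 3, 1, 0 and 1 an adjusted p under 0.01 with edgeR, beside 38.9% and 18.0% of all genes tested. Their medians were -0.12, -0.20, -0.07 and -0.02. Cdkn1a, the kinase inhibitor that p53 turns on, had 34.6 ± 2.29 and 19.4 ± 0.255 CPM (log2 FC -0.84), below the fold limit. Hspa5, a chaperone of the endoplasmic reticulum, had a log2 FC of -0.20, Rpl13, on chromosome 8, had 0.20, and Actb had -0.31. Eef1a1, the most abundant of these genes, had 11016 ± 158 and 10741 ± 196 CPM.

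Of the largest falls outside the lists, several lie on chromosome X. Klhl13, an adaptor of a ubiquitin ligase, had 257, 275 and 272 CPM in WT and 16.5, 18.9 and 18.9 in the double knockout (log2 FC -3.89, standard error 0.0719, adjusted p = 1.79e-13 by edgeR's quasi-likelihood test, Benjamini-Hochberg adjustment). Klhl4, a relative of it, had 8.04, 4.25 and 3.83 CPM in WT and 0 counts in the 3 double knockout libraries, at least 46.3-fold lower against a floor of 3 counts per library. The deubiquitinase gene Usp26 fell from 6.55 ± 0.339 to 0.507 ± 0.312 CPM. In the other direction Erdr1 rose from 148 ± 1.57 to 412 ± 24.5 CPM and Mid1 from 135 ± 9.98 to 314 ± 26.9 (1.48 and 1.22), both chosen after their values were seen. With all 12 libraries scaled together Erdr1 had 194 ± 9.11 CPM in Hmgn1-/- and 434 ± 22.9 in Hmgn2-/- mESCs. Outside chromosome X, the protease gene Prss23 fell by 3.99 on the log2 scale, and the sulfotransferase gene Chst1 and Arl14epl by 3.49 each.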

How the data were processed

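Bulk RNA-Seq of poly-A transcripts was carried out by the authors on v6.5 mESCs. The authors deposited counts, whole numbers of reads per gene and library without normalization. The submitters' processing notes name STAR, DESeq2 and mm10, and the study's methods give STAR version 2.6.0. The counting program, its annotation and its use of strand are not given in the sources used here, so overlapping, antisense and near-identical genes could share reads. Groups and replicate numbers came from the sample labels.

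The 3 Hmgn1-/-Hmgn2-/- and 3 WT libraries were fitted alone with edgeR 4.0.16 in R 4.3.3: TMM normalization, filterByExpr (14128 of 23412 genes kept) and the quasi-likelihood test, adjusted by Benjamini and Hochberg. DEGs had an adjusted p under 0.01 and a log2 FC of at least 1 in size. The square root of the common dispersion was 0.0782, and TMM factors were 0.989 to 1.009. A count of 3 per library was the floor, equal to 0.0946 to 0.170 CPM. Floors and intervals cover counting error only. Replicates of a group differed by more than sampling error (chi-square per degree of freedom 3.40 to 12.1). Steps were tested on simulated counts.

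Named genes were the HMG family, the 15 largest rises and 15 largest falls among DEGs whose mean reached 50 counts and whose groups did not overlap, and, from each of 41 gene lists, every DEG, the most abundant member and, without a DEG, the member of lowest p, together with 5 tested neighbours on each side of both targets. Some of these are not reported here. Other names were chosen after their values were seen: Csf1r, Lrp2, Eif2s3x, Ddx3x, Erdr1, Mid1, Nanog, Sox2, Esrrb, Otx2 and Bst2. So were the genes at 0 counts and those named for the runs of neighbouring falls. The members and lists were chosen with earlier results of these data known, so no test was made over a list. The lists held 683 genes in the table, of which 585 were tested and 123 were DEGs.

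Deviations from the group means correlated between samples of the same replicate number at 0.176, 0.121 and 0.117 across genes, and at -0.114 to 0.006 otherwise. The labels do not say what a shared number stands for. Some genes whose libraries overlapped lay on the same side at every replicate number. Among them Pou5f1, Fgf4, Amotl2 and Dnmt3b were lower in the double knockout, and Rad21 and Fn1 were higher. None of these 6 genes was a DEG with the replicate number as a block.

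Positions and promoters came from RefSeq on GRCm38.p6, and exons and exon lengths from GENCODE M21 on GRCm38. Of the gene names 21563 matched a symbol, 1713 a synonym and 136 neither. Guide sequences came from the study's supplementary tables. Alternatives were each library left out in turn, the replicate number as a block, glmTreat, DESeq2 1.42.0, thinning of all libraries to the smallest total, 1 fit over all 12 libraries, scaling by RLE or by the upper quartile, a looser filter (1 count) and a stricter one (10 counts in each library), and limits without the fold or with an adjusted p under 0.05. Leaving out chromosomes 8, X and Y was added after seeing the data. Tests between the knockouts and the other experiments of the study were not analysed here.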

Additional observations from a re-analysis of the deposited data

How the results depend on the processing

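The count of 890 DEGs was 851 with DESeq2, 894 and 897 with RLE and upper quartile scaling, 1010 with no filter beyond 1 count, 647 with at least 10 counts in every library, 1078 at an adjusted p under 0.05, 904 with all 12 libraries in 1 fit, 827 with thinned counts and 697 to 1047 in the 6 fits that each left out 1 library. It moved by more than 1.5 times with no fold limit, to 2544, and with glmTreat, to 223, by the construction of those limits. The share that fell, 79.3%, was 56.7% with no fold limit and 83.9% with glmTreat, and 77.8% to 80.2% with each library left out. DEGs among list members numbered 123, 226 with no fold limit, 55 with glmTreat, 84 with at least 10 counts in every library, 111 to 126 with each library left out and 116 to 131 in the other settings. With at least 10 counts in every library, 40 of the 123 were not tested and 0 were tested and lost. The primitive endoderm list then had 5 DEGs instead of 8, the interferon-inducible GTPases 4 instead of 7 and the 2-cell-like list 7 instead of 14. With the replicate number as a block there were 942 DEGs, 78.7% of which fell, with 125 list members, and Ankrd1 was the only named gene whose call changed. Of the 890 DEGs, 572 (64.3%) were DEGs with every library left out in turn, and 0 changed direction in any setting that tested them. Of 139 named DEGs, 43 were tested and were DEGs in all 17 settings, and 48 were not tested in at least 1 of them. Over the settings that tested them, 70 were DEGs in each, 47 were lost with glmTreat alone, and 22 were lost in a fit that left out a library. Of these 22, Krt20, Twist2, Ankrd1, Irgm2 and Lefty1 were also lost with DESeq2. Gene-level counts cover the genes named in the text, apart from Bst2 and genes named only for the runs of neighbouring falls. Of the named genes that were not DEGs, 4 changed sign: Hmgb1 was -0.01 with thinned counts and -0.04 to 0.07 with each library left out, Hmga1 -0.34 to 0.01, Id1 -0.10 to 0.40 and Xist -0.13 to 0.26, and the cause was not tested. Genes under 50 mean counts had a median standard error of 0.351 on the log2 scale, against 0.0565 at 5000 or more, so that depth limits the former.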

Other observations

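DEGs that fell also lay side by side. These include the Zscan4 and Tcstv families and the Y-linked genes. On chromosome 7, 4 kallikrein genes (Klk1, Klk8, Klk10 and Klk11) fell as neighbours among the genes tested. So did Trim12c, Usp17le, Usp17lb and Usp17la on chromosome 7 and Tmprss5, Ttc12, Ncam1 and 1600029D21Rik on chromosome 9. The runs were chosen because all their members fell, beside 5.00% of all genes tested. How many such runs would be expected was not computed. A run of 7 falls on chromosome 12 holds only genes named Gm with a number, whose reads could be shared between copies. The cause of these runs was not tested.

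The limits are those of the design. The double knockout is 1 clonal line, so that the edits, the history of the clone, and the shifts of chromosomes 8, X and Y cannot be told apart. Replicates are samples of the same line. Bulk RNA does not tell apart a change in the share of cells and a change within cells. Low genes have wide errors, and 9284 genes were too low to test. Reads of near-identical copies and of overlapping genes are uncertain. The use of duplicates is not given in the sources used here.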
